A study of Mus musculus with 36 samples.

Results

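The genes of sterol and fatty acid synthesis were followed through a stress experiment in mouse embryonic fibroblasts (MEFs). The set holds 31 genes of the 36856 gene symbols in the count table. It comprises 18 enzymes that make sterols, 7 enzymes that make fatty acids, 5 genes that regulate both routes (Srebf1, Srebf2, Scap, Insig1 and Insig2) and Stard4, which carries cholesterol inside the cell. Rows were taken by gene symbol, all 31 were present, and all 31 passed the filter on low counts that left 16065 genes to be tested. The set was chosen by earlier measured values from these same libraries, among them the lower Hmgcs1 of PERK -/- cells given BtdCPU, so that response and its comparison with WT are given here as a description without a test.

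The study compared wild-type (WT) MEFs with PERK -/- MEFs, which lack PERK, the stress kinase of the endoplasmic reticulum encoded by Eif2ak3. Each genotype received 6 treatments: DMSO as the vehicle, each of thapsigargin, BtdCPU and halofuginone alone, and thapsigargin joined with either BtdCPU or halofuginone. Each of the 12 groups held 3 libraries of total RNA, 36 in all. The labels give no dose, time, age or batch, and they do not say whether the MEFs of a genotype came from 1 line or clone, so genotype and line cannot be told apart. They also do not say that replicates were separate cultures, and p-values then measure only the spread between these libraries.

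Cells make cholesterol from acetyl-CoA through mevalonate, isoprenoids and squalene, and they make fatty acids from acetyl-CoA through malonyl-CoA and palmitate. Both routes are switched on by the SREBP transcription factors, which wait in the endoplasmic reticulum membrane bound to SCAP and are held there by the INSIG proteins while sterols are plentiful. SREBP2, from Srebf2, is best known for sterol genes and SREBP1, from Srebf1, for fatty acid genes, with overlap between them. Thapsigargin blocks the calcium pump of the endoplasmic reticulum and so stresses that organelle and activates PERK. BtdCPU leads to activation of the kinase HRI. Halofuginone blocks the enzyme that charges proline onto its tRNA, which turns on the kinase GCN2. PERK, HRI and GCN2 all phosphorylate the translation factor eIF2α.

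Libraries held between 32454257 and 37178107 counts, and the lowest count of any of the 31 genes in any library was 44. Levels are CPM, counts scaled to a common library size by TMM, not per length, so they are compared between libraries and not between genes. Differences are log2 fold changes with standard errors (SE), and the adjusted p is that of edgeR's quasi-likelihood test with Benjamini-Hochberg adjustment over all 16065 genes. A gene is said to rise or fall where the adjusted p was under 0.05, and the median log2 fold change of all tested genes lay between -0.05 and 0.05 in every comparison. Comparisons with DMSO within a genotype share the same 3 DMSO libraries, and comparisons with thapsigargin share the same 3 thapsigargin libraries. The PERK -/- DMSO libraries also entered the BtdCPU values by which the set was chosen. Tests against those DMSO libraries are therefore not independent of that choice. In bulk RNA, fewer cells of a type and less RNA per cell cannot be told apart.

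Eif2ak3 read 30.3, 32.4 and 30.7 CPM in WT DMSO libraries and 9.37, 9.67 and 10.8 CPM in PERK -/- DMSO libraries, lower in every PERK -/- library than in every WT library of the same treatment. Of 8 fibroblast markers, 7 were present above 1 CPM in all groups. Fap, the remaining marker, was near 1 CPM in WT DMSO and was at 0 in PERK -/- libraries with BtdCPU, halofuginone, or BtdCPU and thapsigargin. Of 7 adipocyte markers, Pparg and Fabp4 were present in all groups, and Adipoq, Plin1, Cidec, Cfd and Lep were at or near 0. The WT BtdCPU replicate 2 library stood apart from its group: Ddit3, a gene induced by eIF2α phosphorylation, read 70.9 CPM there against 156 and 133 CPM in replicates 1 and 3.

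Promoters are shown first for 4 genes that the results below turn on, as the 250 bases before the start of transcription (RefSeq, GRCm38.p6, plus strand, 5′ to 3′). They are Hmgcs1, chr13:119690101-119690350, the cytosolic synthase that precedes mevalonate, Nsdhl, chrX:72918271-72918520, a sterol dehydrogenase, Insig1, chr5:28071162-28071411, and Acss2, chr2:155517793-155518042, which makes acetyl-CoA from acetate. Capitals mark the sterol regulatory element TCACNCCAC and the NF-Y box CCAAT, which reads ATTGG on the other strand.

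Hmgcs1: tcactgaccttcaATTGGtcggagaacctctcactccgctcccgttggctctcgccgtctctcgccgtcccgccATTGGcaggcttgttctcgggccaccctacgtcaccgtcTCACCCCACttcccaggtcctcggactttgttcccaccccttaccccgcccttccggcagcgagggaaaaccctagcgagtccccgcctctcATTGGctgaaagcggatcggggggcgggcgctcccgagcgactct
Nsdhl: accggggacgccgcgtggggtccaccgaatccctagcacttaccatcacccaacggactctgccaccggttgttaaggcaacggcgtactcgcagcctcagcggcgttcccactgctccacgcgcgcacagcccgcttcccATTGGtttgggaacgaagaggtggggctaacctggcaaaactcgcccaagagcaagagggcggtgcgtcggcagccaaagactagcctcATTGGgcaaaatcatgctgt
Insig1: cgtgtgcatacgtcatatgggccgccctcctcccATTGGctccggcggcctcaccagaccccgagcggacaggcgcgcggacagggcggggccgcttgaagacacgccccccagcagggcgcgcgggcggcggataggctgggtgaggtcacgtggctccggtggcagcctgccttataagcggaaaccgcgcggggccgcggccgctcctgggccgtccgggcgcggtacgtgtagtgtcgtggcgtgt
Acss2: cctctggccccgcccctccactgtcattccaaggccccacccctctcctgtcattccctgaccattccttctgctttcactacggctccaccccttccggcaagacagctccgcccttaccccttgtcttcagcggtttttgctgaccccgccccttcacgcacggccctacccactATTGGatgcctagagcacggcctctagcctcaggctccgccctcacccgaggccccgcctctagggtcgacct

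The RefSeq table held a window from 250 bases before to 50 bases after the start for 25 of the 31 genes, and motifs were searched there on both strands. TCACNCCAC occurred in 1 of these 25, Hmgcs1, 137 bases before the start, and in 1.39% of the 11155 tested genes with a window. CCAAT occurred in 14 of 15 sterol enzymes, 3 of 5 fatty acid enzymes and 4 of 5 regulators, against 42.9% of the tested genes. GGGCGG, the GC box, occurred in 14 of 15 sterol enzymes, 2 of 5 fatty acid enzymes and all 5 regulators, against 65.1%. TGATGNAA, a form of the element read by ATF4 and CHOP, occurred in Idi1 and Insig2, against 3.07%. These are matches of letters and not measured sites.

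**Figure D1:**
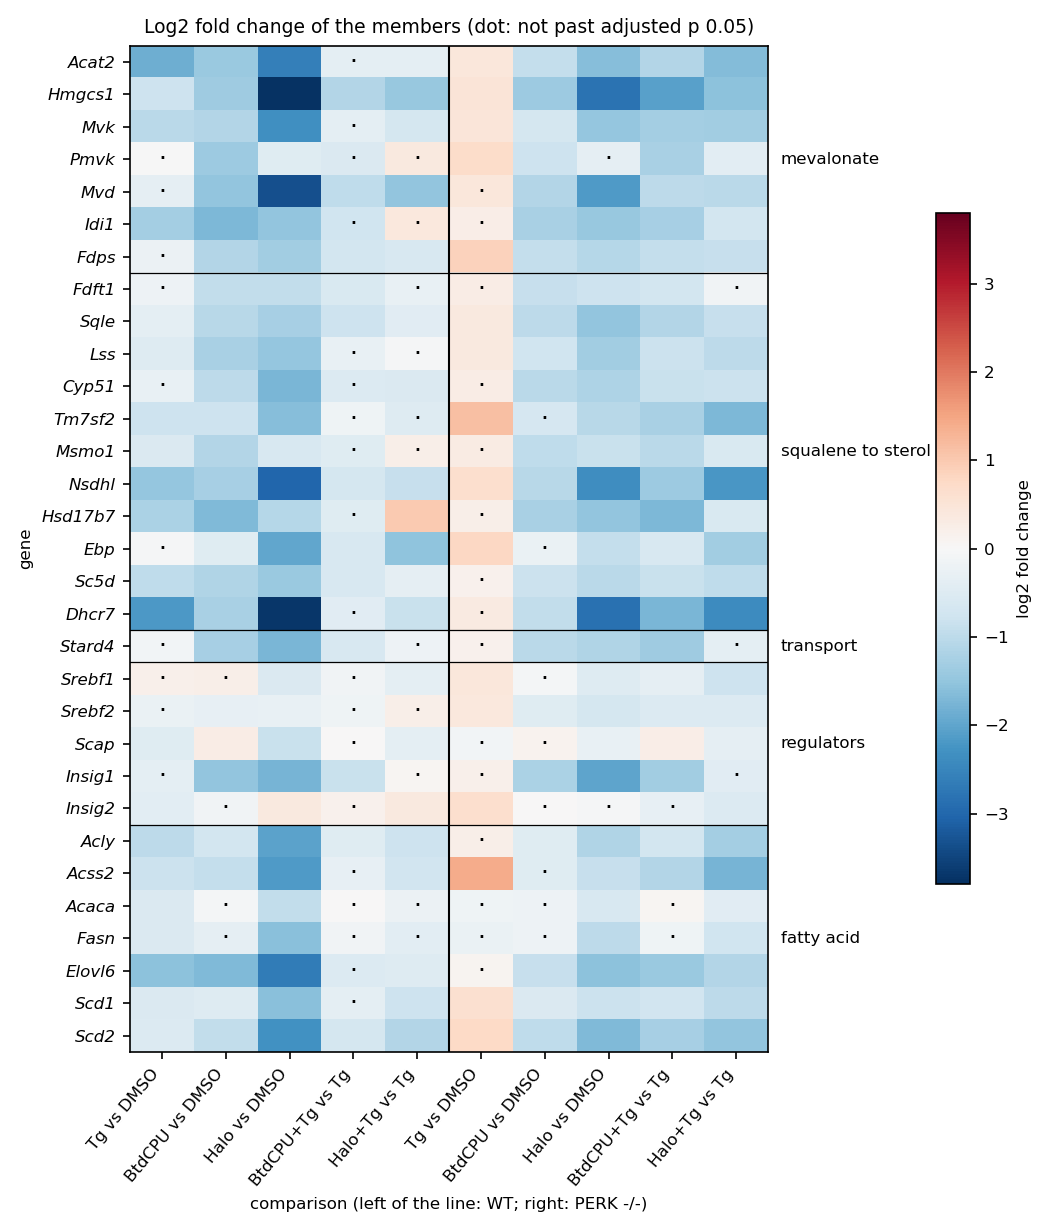
Log2 fold change of each of the 31 genes (rows, grouped by role) in the 10 treatment comparisons (columns, WT left of the line and PERK -/- right of it), on a colour scale from lower (blue) to higher (red), where dots mark genes that did not pass an adjusted p of 0.05. Tg stands for thapsigargin and Halo for halofuginone. The WT halofuginone column is nearly all blue, down to -3.74 for Hmgcs1, and the PERK -/- thapsigargin column holds only higher calls, 16 of 31.

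Without treatment, sterol genes were already lower in PERK -/- cells. In DMSO, 10 of 18 sterol enzymes, 3 of 7 fatty acid enzymes and 3 of 5 regulators were lower in PERK -/- than in WT, and 1 gene, Pmvk (phosphomevalonate kinase), was higher. Over all tested genes, 24.9% were lower and 24.6% higher, so the share of lower genes in the set, 16 of 31, was above the background and the share of higher genes was below it. The median log2 fold change was -0.37 for sterol enzymes and -0.35 for fatty acid enzymes.

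Nsdhl, a dehydrogenase that helps strip methyl groups from the sterol rings, read 154, 177 and 182 CPM in WT and 60.3, 69.0 and 64.8 CPM in PERK -/-. All 3 PERK -/- libraries lay far below the WT libraries, with a log2 fold change of -1.40 (SE 0.166, edgeR adjusted p = 2.02e-08). Sc5d, the desaturase of the last steps, read 114, 131 and 116 CPM in WT and 62.3, 72.9 and 63.4 CPM in PERK -/- (log2 fold change -0.86, SE 0.141, edgeR adjusted p = 5.67e-06). Insig1 read 88.0, 96.6 and 90.4 CPM in WT and 41.9, 46.7 and 48.1 CPM in PERK -/-, 2.01-fold lower (log2 fold change -1.01, SE 0.193, edgeR adjusted p = 5.79e-05). Neither transcription factor passed the test: the log2 fold change of Srebf2 was 0.14 (SE 0.109, edgeR adjusted p = 0.314) and that of Srebf1 was -0.15 (SE 0.0921, edgeR adjusted p = 0.179), and for both the libraries of the genotypes overlapped. Acss2 was lower by a log2 fold change of -0.77 (SE 0.285, edgeR adjusted p = 0.0258), a call that was lost without WT DMSO replicate 1 or 2 or without PERK -/- DMSO replicate 1.

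The genotype difference in DMSO depended on single libraries for many members. The count of genes called in either direction, 17, was 10 without WT DMSO replicate 1, 10 without PERK -/- DMSO replicate 1, and 11 when TMM was left out and libraries were scaled by size. The count of lower sterol enzymes, 10, was 6 without WT DMSO replicate 1 or 2 and 5 without PERK -/- DMSO replicate 1 or with that scaling, and the count of lower fatty acid enzymes, 3, was 1 without the first DMSO library of either genotype. The rise of Pmvk was lost without WT DMSO replicate 1 or 3 or PERK -/- DMSO replicate 2 or 3. The fatty acid median was -0.08 without WT DMSO replicate 3 and -0.22 without PERK -/- DMSO replicate 2. Nsdhl, Sc5d and Insig1 were called in each of these settings. The summed level of the 8 fibroblast markers was also lower in PERK -/- DMSO libraries, at 11271 to 13396 CPM against 16759 to 20809 CPM in WT, and its part in the difference was not tested.

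Thapsigargin separated the genotypes. In WT cells, 12 of 18 sterol enzymes and all 7 fatty acid enzymes fell, with medians of -0.66 and -0.56, and none rose. In PERK -/- cells, 10 of 18 sterol enzymes and 3 of 7 fatty acid enzymes rose, with medians of 0.40 and 0.23, and none fell. The backgrounds were 22.7% of all tested genes lower in WT, against 21 of the 31 genes here, and 15.2% higher in PERK -/-, against 16 of 31. In the opposite direction to these calls, 1 gene in WT and 0 in PERK -/- had an unadjusted edgeR p under 0.05, and DESeq2 called 0 in each. Hspa5 and Ddit3, taken as checks of the treatment, rose less in PERK -/- cells. Hspa5 rose 14.4-fold in WT and 3.93-fold in PERK -/-, and Ddit3 25.3-fold and 2.30-fold. The genotype difference was -1.88 for Hspa5 (SE 0.201, edgeR adjusted p = 8.37e-09) and -3.46 for Ddit3 (SE 0.302, edgeR adjusted p = 1.89e-10). The part of these smaller rises in the results was not tested.

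Dhcr7, a reductase of the last steps to cholesterol, read 50.9, 46.5 and 54.2 CPM in WT DMSO and 10.8, 12.5 and 10.4 CPM in WT thapsigargin. PERK -/- cells had Dhcr7 at 35.1, 31.1 and 40.8 CPM in DMSO and 43.2, 41.5 and 51.3 CPM in thapsigargin. WT libraries with thapsigargin thus lay below every other library of these 4 groups, 4.5-fold below WT DMSO (log2 fold change -2.17, SE 0.214, edgeR adjusted p = 7.72e-10), while the log2 fold change of 0.34 in PERK -/- cells did not pass the test. Acat2, the cytosolic thiolase that joins acetyl-CoA units, read 194, 211 and 202 CPM in WT DMSO and 59.3, 53.3 and 55.7 CPM in WT thapsigargin. Acat2 in PERK -/- cells read 148, 164 and 164 CPM in DMSO and 201, 213 and 228 CPM in thapsigargin. The groups did not overlap in either genotype: Acat2 fell by 1.85 on the log2 scale in WT (SE 0.139, edgeR adjusted p = 2.03e-12) and was higher by 0.43 in PERK -/-, a call lost without PERK -/- thapsigargin replicate 2 or 3 or without PERK -/- DMSO replicate 1 or 3. Reads of Acat2 could be shared with its near-identical copy Acat3, and the counting rule is not given in the sources used here.

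Among fatty acid enzymes, Elovl6, which lengthens palmitate, read 32.1, 34.5 and 34.2 CPM in WT DMSO and 10.2, 12.5 and 11.2 CPM in WT thapsigargin. It fell by 1.57 on the log2 scale (SE 0.201, edgeR adjusted p = 1.21e-07), with no overlap between the groups. Elovl6 in PERK -/- cells read 36.5, 34.7 and 37.8 CPM in DMSO and 38.0, 37.9 and 40 CPM in thapsigargin, a log2 fold change of 0.09 that did not pass the test. Fasn, the synthase that builds palmitate, was lower in WT thapsigargin by a log2 fold change of -0.56, with overlapping libraries, and this call was lost if WT thapsigargin replicate 2 or the WT DMSO replicate 3 library was left out and in a fit limited to the 2 groups. The calls of Acss2 (-0.83) and of the sterol enzyme Sqle (-0.37), which oxidises squalene, were also lost without single libraries: Acss2 if 1 of WT thapsigargin replicates 1 and 3 or 1 of the first 2 WT DMSO libraries was left out, and Sqle if WT thapsigargin replicate 3 or the WT DMSO replicate 2 library was left out.

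The 6 sterol enzymes not called in WT thapsigargin were Pmvk (-0.01), Ebp (-0.04), Fdft1 (-0.20), Fdps (-0.22), Cyp51 (-0.29) and Mvd (-0.33). They stand at different points of the route: Pmvk and Mvd handle phosphorylated mevalonate, Fdps makes farnesyl diphosphate, Fdft1 makes squalene, Cyp51 demethylates lanosterol and Ebp shifts a ring double bond. Of the enzymes that did fall, Nsdhl had a log2 fold change of -1.47, Idi1, which interconverts the isoprenoid building blocks, -1.30, and Hsd17b7, a ketoreductase, -1.19.

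In PERK -/- thapsigargin, the largest rises among sterol enzymes were those of Tm7sf2 and Fdps. Tm7sf2, a sterol reductase, read 16.0, 16.4 and 16.3 CPM in DMSO and 30.9, 34.4 and 41.4 CPM in thapsigargin (log2 fold change 1.13, SE 0.212, edgeR adjusted p = 0.000102). Fdps read 106, 131 and 123 CPM in DMSO and 204, 207 and 245 CPM in thapsigargin (log2 fold change 0.87, SE 0.168, edgeR adjusted p = 0.000166). Acss2 rose most of all, from 5.16, 6.39 and 6.56 CPM to 15.1, 15 and 18.2 CPM, 2.67-fold (log2 fold change 1.41, SE 0.286, edgeR adjusted p = 0.000275). For each of these 3 genes every thapsigargin library was above every DMSO library. Acss2 overlaps its antisense neighbour Acss2os and Tm7sf2 overlaps Vps51 in the RefSeq annotation, and whether counting used strand is not given in the sources used here.

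The count of rises in PERK -/- thapsigargin was lower without any 1 of the 6 libraries. Over the 31 genes it was 10 rather than 16 without PERK -/- thapsigargin replicate 3. For the sterol enzymes it was 5 rather than 10 without PERK -/- thapsigargin replicate 3 or PERK -/- DMSO replicate 1, and 6 without replicate 2 of either group. Hmgcs1, at 295, 323 and 343 CPM in DMSO and 456, 392 and 509 CPM in thapsigargin, had a log2 fold change of 0.50 whose call was lost when any 1 of the 6 libraries was left out. The 10 genes called under every alternative were Pmvk, Fdps, Tm7sf2, Nsdhl, Ebp, Acss2, Scd1, Scd2, Srebf1 and Insig2. Summed fibroblast markers moved the same way as the set. They went from 16759 to 20809 CPM in WT DMSO to 10521 to 12661 CPM in WT thapsigargin. In PERK -/- they went from 11271 to 13396 CPM in DMSO to 15099 to 19251 CPM in thapsigargin. The single markers did not all rise in PERK -/-. Col1a1 averaged 2831 CPM in DMSO and 4306 CPM in thapsigargin, while Vim averaged 3161 and 2506 CPM and Thy1 110 and 107 CPM. The part of these shifts in the results was not tested.

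**Figure D2:**
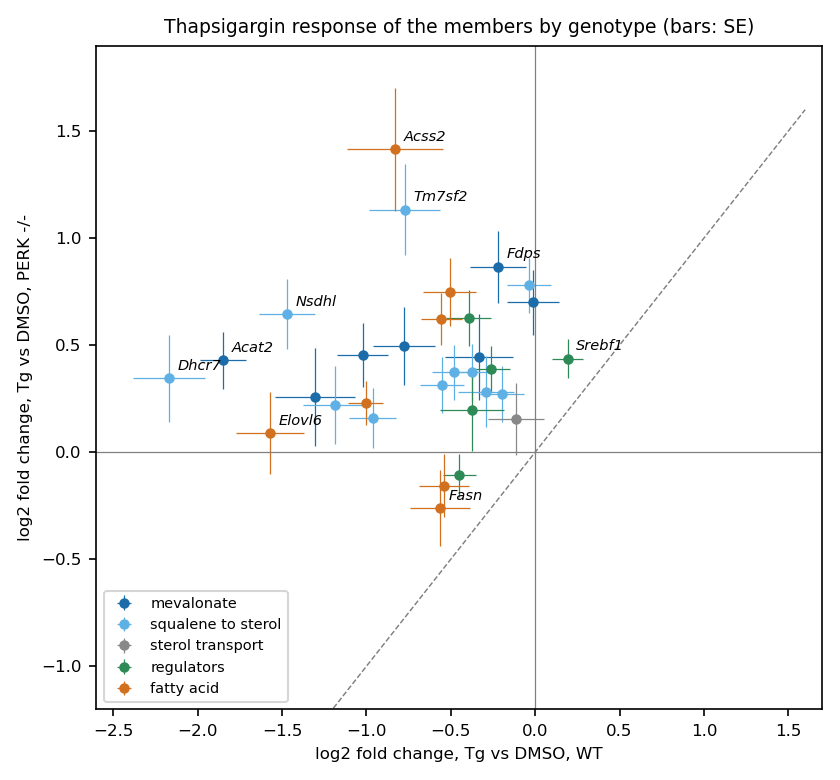
Log2 fold change with thapsigargin over DMSO in WT (horizontal axis) against that in PERK -/- (vertical axis) for the 31 genes, coloured by role, with bars of 1 SE. The dashed line marks equal responses, all 31 points lie above it, and Dhcr7 and Acat2 sit farthest left, at -2.17 and -1.85 in WT. Tg stands for thapsigargin.

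Of the 5 regulators, 2 fell with thapsigargin in WT (median -0.38) and 3 rose in PERK -/- (median 0.39). Srebf2 read 605, 596 and 649 CPM in WT DMSO and 496, 550 and 500 CPM in WT thapsigargin, a log2 fold change of -0.26 that did not pass (SE 0.109, edgeR adjusted p = 0.0507). Srebf2 in PERK -/- cells read 643, 652 and 738 CPM in DMSO and 830, 851 and 981 CPM in thapsigargin, a rise of 0.39 (SE 0.109, edgeR adjusted p = 0.0072) that was lost without PERK -/- thapsigargin replicate 3. Neither pair of groups overlapped. Srebf1 had a log2 fold change of 0.19 in WT (SE 0.0920, edgeR adjusted p = 0.0829) and rose by 0.44 in PERK -/- (SE 0.0921, edgeR adjusted p = 0.000452). Insig1 passed in neither genotype, at -0.38 in WT (SE 0.191, edgeR adjusted p = 0.105) and 0.20 in PERK -/- (SE 0.192, edgeR adjusted p = 0.495). In WT, Scap was lower by -0.45 and Insig2 by -0.39, the latter lost if WT thapsigargin replicate 3 or either of the first 2 WT DMSO libraries was left out and in a fit limited to the 2 groups, and in PERK -/- Insig2 rose by 0.63.

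The difference between the 2 thapsigargin responses was itself tested. It was above 0 and called for 24 of the 31 genes, against 19.5% of all tested genes, and below 0 and called for none by edgeR or by DESeq2, with 0 at an unadjusted edgeR p under 0.05. The 24 comprised 17 of 18 sterol enzymes (median difference 1.10), 5 of 7 fatty acid enzymes (median 1.23), Srebf2 and Insig2. The largest differences were those of Dhcr7, at 2.51 (SE 0.292, edgeR adjusted p = 4.03e-08), and Acat2, at 2.28 (SE 0.192, edgeR adjusted p = 1.09e-10). Cyp51 (0.57), Stard4 (0.27), Fasn (0.30), Acaca (0.39), Srebf1 (0.24), Scap (0.34) and Insig1 (0.57) did not pass. Of the 24, the calls of Mvd and Fdft1 were lost under some alternatives and the other 22 were called in each: Mvd was lost when 1 of these was left out: WT thapsigargin replicate 2 or 3, the WT DMSO libraries 2 or 3, PERK -/- thapsigargin replicate 3 or PERK -/- DMSO replicate 1. Fdft1, which overlaps Ctsb in the annotation, was lost without most single libraries.

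BtdCPU alone lowered the whole sterol route in WT cells. All 18 sterol enzymes fell, with a median of -1.19, and 5 of 7 fatty acid enzymes fell, with a median of -0.71 over the 7. Stard4, Insig1 and Srebf2 fell as well, giving 26 of 31 lower against 9.31% of all tested genes, and Scap rose, 1 of 31 against 12.9%. The 2 fatty acid enzymes that did not pass were Acaca (-0.08), which makes malonyl-CoA, and Fasn (-0.33). In a fit limited to the 2 groups 3 of 7 fatty acid enzymes fell, without Acss2 and Scd1. That fit called 835 genes over all genes, against 3571 in the main fit. Pparg, an adipocyte marker, averaged 5.67 CPM in WT BtdCPU against 1.63 CPM in WT DMSO. Fabp4, another adipocyte marker, was lower there, at a mean of 2.90 CPM against 4.31 CPM, with overlapping libraries. The 7 adipocyte markers summed to 7.31 to 9.85 CPM in WT BtdCPU against 3.87 to 8.18 CPM in WT DMSO. The part of these markers in the result was not tested.

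Idi1 read 37.0, 39.7 and 31.3 CPM in WT DMSO and 8.60, 16.8 and 7.47 CPM in WT BtdCPU (log2 fold change -1.72, SE 0.241, edgeR adjusted p = 3.79e-06). Hsd17b7 read 30.0, 28.7 and 34.5 CPM in DMSO and 5.83, 13.1 and 9.87 CPM in BtdCPU (log2 fold change -1.69, SE 0.188, edgeR adjusted p = 5.85e-08). Elovl6 read 7.48, 16.1 and 8.14 CPM in BtdCPU, below all its DMSO values (log2 fold change -1.66, SE 0.202, edgeR adjusted p = 3.22e-07). In all 3 genes replicate 2 was the highest of the BtdCPU libraries and was still below every DMSO library. Insig1 read 22.2, 47.5 and 27.4 CPM in BtdCPU, 2.83-fold below DMSO (log2 fold change -1.50, SE 0.196, edgeR adjusted p = 1.17e-06). Without replicate 2 the sterol median was -1.39, and without replicate 1 it was -1.04.

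The change in Srebf2 itself was small in WT BtdCPU, at -0.31 (SE 0.109, edgeR adjusted p = 0.0384), and its call was lost without WT BtdCPU replicate 1 or 3 or any 1 DMSO library, without the filter on low counts and in the fit limited to the 2 groups. Srebf1 had a log2 fold change of 0.21 (SE 0.0920, edgeR adjusted p = 0.0972) with overlapping libraries. Scap was higher by 0.27 with overlapping libraries, and this call was lost when libraries were scaled by size without TMM, without the filter, in the fit limited to the 2 groups, without WT BtdCPU replicate 1 or 3, and without WT DMSO replicate 1 or 2. Calls were also lost for Acss2 without WT BtdCPU replicate 1 or 3 or WT DMSO replicate 1 or 2, for Tm7sf2 without WT BtdCPU replicate 1 or WT DMSO replicate 2, and for Ebp without WT BtdCPU replicate 1 or WT DMSO replicate 3, and for all 3 in the fit limited to the 2 groups.

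In PERK -/- cells given BtdCPU, the values from which the set was chosen, 23 of the 31 genes were lower by the same cut, beside 1.04% of all tested genes. Because of that choice the count is a description and carries no test. The 23 genes comprised 16 of 18 sterol enzymes, with a median of -0.93 over the 18, 4 of 7 fatty acid enzymes, with a median of -0.47, and Stard4, Insig1 and Srebf2. Hmgcs1 read 96.1, 134 and 140 CPM against 295, 323 and 343 CPM in DMSO (log2 fold change -1.37, SE 0.186). Idi1 had a log2 fold change of -1.24 (SE 0.235), Insig1 of -1.21 (SE 0.197), Scd2, a desaturase, of -0.98 (SE 0.158) and Srebf2 of -0.46 (SE 0.109). As in WT, Acaca (-0.18) and Fasn (-0.20) were not among them.

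The PERK -/- response to BtdCPU minus the WT response is also given as a description only. It ranged from -0.28 for Srebf1 to 0.78 for Elovl6, with a median of 0.24 over sterol enzymes. Without WT BtdCPU replicate 2, the library that stood apart, the sterol median was 0.49.

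**Figure D3:**
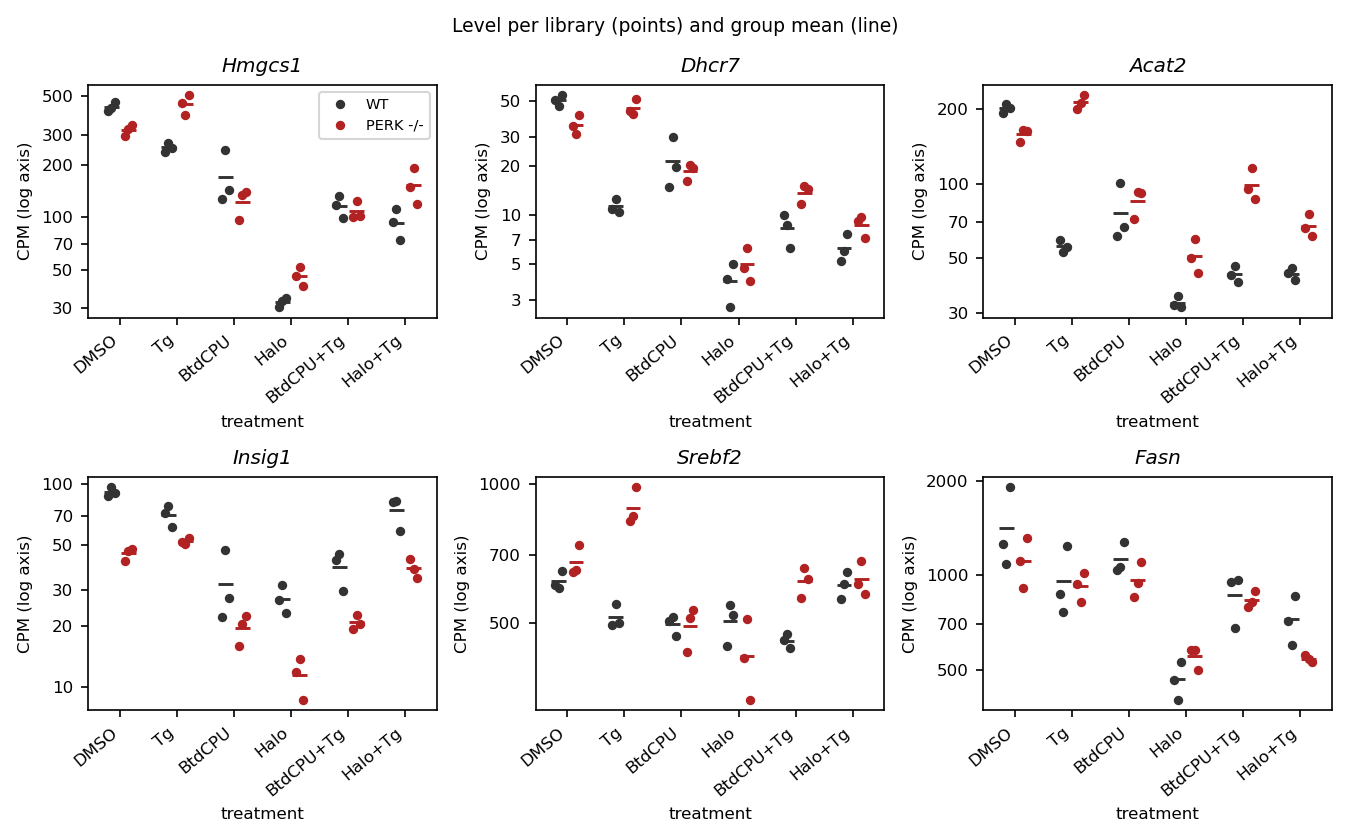
CPM (log axis) of Hmgcs1, Dhcr7, Acat2, Insig1, Srebf2 and Fasn in each library (points) with the group mean (line), by treatment and genotype, where Tg stands for thapsigargin and Halo for halofuginone. Hmgcs1 falls to 30.3 to 34.3 CPM in WT halofuginone, and Fasn in BtdCPU libraries stays within the range of DMSO libraries or just below it.

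Halofuginone alone gave the lowest sterol median of the treatment comparisons in each genotype. In WT cells 30 of 31 genes fell, against 33.4% of all tested genes, and 1 rose, Insig2, against 34.7%. All 18 sterol enzymes fell, with a median of -1.55, and all 7 fatty acid enzymes fell, with a median of -2.04. In PERK -/- cells 17 of 18 sterol enzymes (median -1.38), all 7 fatty acid enzymes (median -1.01), Stard4 and 4 of 5 regulators fell, 29 of 31 against 21% of all tested genes, and none rose by edgeR, by DESeq2 or at an unadjusted edgeR p under 0.05.

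Hmgcs1 read 411, 431 and 464 CPM in WT DMSO and 30.3, 33.0 and 34.3 CPM in WT halofuginone, 13.4-fold lower (log2 fold change -3.74, SE 0.205, edgeR adjusted p = 4.52e-16). With halofuginone in PERK -/- cells Hmgcs1 read 46.1, 52.0 and 40 CPM, 6.96-fold below DMSO (log2 fold change -2.80, SE 0.196, edgeR adjusted p = 1.16e-12). Dhcr7 read 4.03, 2.70 and 5.0 CPM in WT halofuginone, 12.9-fold below DMSO (log2 fold change -3.69, SE 0.234, edgeR adjusted p = 1.1e-14). Dhcr7 in PERK -/- halofuginone read 4.69, 6.24 and 3.92 CPM (log2 fold change -2.85, SE 0.224, edgeR adjusted p = 1.39e-11). For both genes the halofuginone libraries lay far below DMSO libraries of the same genotype. The smallest falls among WT sterol enzymes were those of Pmvk (-0.47) and Msmo1 (-0.60), a sterol methyl oxidase, and Pmvk was the 1 sterol enzyme not called in PERK -/- cells (-0.33).

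The fatty acid enzymes included Acaca and Fasn under halofuginone. Fasn read 1257, 1085 and 1904 CPM in WT DMSO and 465, 403 and 532 CPM in WT halofuginone, a log2 fold change of -1.60. Fasn in PERK -/- cells read 1111, 913 and 1310 CPM in DMSO and 580, 578 and 499 CPM in halofuginone, a log2 fold change of -1.01. Elovl6 fell to 5.91, 5.95 and 3.95 CPM in WT (log2 fold change -2.67, SE 0.213, edgeR adjusted p = 1.92e-12). Scd2 fell most in PERK -/- cells, from 739, 713 and 854 CPM to 238, 295 and 184 CPM (log2 fold change -1.69, SE 0.161, edgeR adjusted p = 6.57e-10). Scd1 and Scd2 are close copies, so reads could be split between them. The halofuginone libraries of these enzymes did not overlap DMSO libraries.

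Among regulators, Insig1 fell to 26.8, 31.8 and 23.1 CPM in WT halofuginone (log2 fold change -1.75, SE 0.198, edgeR adjusted p = 3.31e-09). Insig1 in PERK -/- halofuginone read 11.8, 13.7 and 8.67 CPM (log2 fold change -2.0, SE 0.203, edgeR adjusted p = 2.3e-09). Srebf1 fell by 0.54 on the log2 scale in WT (SE 0.0925, edgeR adjusted p = 6.83e-06) and by 0.48 in PERK -/- (SE 0.0924, edgeR adjusted p = 7.55e-05). Srebf2 fell by 0.68 in PERK -/- (SE 0.110, edgeR adjusted p = 8.07e-06). In WT the Srebf2 change was -0.29 (SE 0.109, edgeR adjusted p = 0.0205), lost without WT halofuginone replicate 1 or WT DMSO replicate 3 and in a fit limited to the 2 groups. The rise of Insig2 in WT, 0.36 with overlapping libraries, was lost when libraries were scaled by size without TMM, without the filter on low counts, in that limited fit, and without WT halofuginone replicate 1 or 2 or WT DMSO replicate 3.

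Markers of other cell types also moved with halofuginone in WT. Krt8 and Krt18, 2 of the 4 epithelial markers, averaged 11.2 and 7.50 CPM in WT halofuginone against 0.125 and 0 CPM in WT DMSO, and the 4 markers summed to 16.9 to 23.5 CPM there and to 3.02 to 4.80 CPM in PERK -/- halofuginone. The 8 fibroblast markers summed to 11058 to 12578 CPM in WT halofuginone. Of these, Col1a1 averaged 3205 CPM there against 5566 CPM in WT DMSO, while Thy1 averaged 231 CPM against 149 CPM. Pparg, an adipocyte marker, averaged 20.2 CPM in PERK -/- halofuginone against 7.86 CPM in PERK -/- DMSO. The part of these shifts in the results was not tested.

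The difference between the halofuginone responses was above 0 and called for 13 of 31 genes, against 17.5% of all tested genes, and below 0 for none by edgeR. DESeq2 called 1 below 0, and 2 had an unadjusted edgeR p under 0.05. The 13 comprised 7 sterol enzymes, 5 fatty acid enzymes (3 without PERK -/- DMSO replicate 1) and Scap. The largest were Acss2, at 1.26 (SE 0.423, edgeR adjusted p = 0.0207), and Mvd, at 1.21 (SE 0.291, edgeR adjusted p = 0.00164). Mvd, the decarboxylase that ends the mevalonate steps, read 143, 164 and 166 CPM in WT DMSO and 11.7, 19.3 and 15.4 CPM in WT halofuginone, and 108, 127 and 127 CPM in PERK -/- DMSO and 28.6, 31.1 and 22.5 CPM in PERK -/- halofuginone. Thus the lowest libraries of Mvd were those of WT halofuginone, with no overlap. The call of Acss2 was lost without WT halofuginone replicate 1, WT DMSO replicate 2 or PERK -/- DMSO replicate 1. Each response is measured from the DMSO libraries of its genotype, which already differed. Relative to WT DMSO, the mean log2 CPM of the 18 sterol enzymes was -0.40 in PERK -/- DMSO. With halofuginone it was -1.90 in WT and -1.86 in PERK -/-. The 7 fatty acid enzymes averaged -0.28 in PERK -/- DMSO, -1.90 in WT halofuginone and -1.38 in PERK -/- halofuginone.

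In WT cells, where thapsigargin alone had already lowered 21 of the 31 genes, BtdCPU added to thapsigargin gave a further fall in fewer genes. Against thapsigargin alone, 8 of 18 sterol enzymes (median -0.56), 2 of 7 fatty acid enzymes (median -0.38), Stard4 and Insig1 fell. That is 12 of 31 against 1.02% of all tested genes, and none rose by edgeR, by DESeq2 or at an unadjusted edgeR p under 0.05. Hmgcs1 read 240, 270 and 251 CPM with thapsigargin and 117, 133 and 99.4 CPM with both agents (log2 fold change -1.12, SE 0.185, edgeR adjusted p = 0.00132). Mvd read 137, 117 and 122 CPM with thapsigargin and 73.3, 70.1 and 49.5 CPM with both (log2 fold change -0.96, SE 0.203, edgeR adjusted p = 0.00974). For both genes the groups did not overlap. Scd2 fell by 0.66 on the log2 scale (SE 0.157, edgeR adjusted p = 0.0211) and Insig1 by 0.85 (SE 0.193, edgeR adjusted p = 0.0168), and both calls were lost without BtdCPU and thapsigargin replicate 3 or without thapsigargin replicate 1 or 2, that of Scd2 also without thapsigargin replicate 3. The call of Mvd was lost without BtdCPU and thapsigargin replicate 3 or without thapsigargin replicate 1. Srebf1 (-0.12, SE 0.0919, edgeR adjusted p = 0.543) and Srebf2 (-0.17, SE 0.109, edgeR adjusted p = 0.445) did not pass.

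This count was sensitive to single libraries and to the model. It was 2 without WT BtdCPU and thapsigargin replicate 3, 2 without WT thapsigargin replicate 1, and 6 without WT thapsigargin replicate 2. No fatty acid enzyme was called without the first 2 of these or without WT thapsigargin replicate 3. A fit limited to the 2 groups called 3 genes of the set, beside 23 over all genes. A fit without the filter on low counts called 19, beside 813, while the main fit called 12, beside 372. Same-numbered libraries of these 2 groups deviated together, and with the replicate block 20 of the 31 genes were called, beside 2079 over all genes. Hmgcs1 and Sqle were the 2 genes called under every alternative.

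In PERK -/- cells, where thapsigargin alone had raised part of the set, BtdCPU added to thapsigargin lowered 27 of the 31 genes. All 18 sterol enzymes fell, with a median of -1.11, as did 5 of 7 fatty acid enzymes (median -0.72), Stard4, Insig1, Srebf1 and Srebf2. Over all tested genes 18.3% were lower, and Scap rose, 1 of 31 against 17.3%. Hmgcs1 read 456, 392 and 509 CPM with thapsigargin and 100, 125 and 102 CPM with both agents (log2 fold change -2.05, SE 0.189, edgeR adjusted p = 7.54e-10). Dhcr7 read 11.6, 14.9 and 14.3 CPM with both (log2 fold change -1.73, SE 0.210, edgeR adjusted p = 1.08e-07). Elovl6 read 12.4, 15.1 and 15.7 CPM with both (log2 fold change -1.42, SE 0.199, edgeR adjusted p = 1.17e-06). None of these groups overlapped the thapsigargin libraries. Insig1 fell by 1.33 on the log2 scale (SE 0.197, edgeR adjusted p = 3.03e-06) and Srebf2 by 0.53 (SE 0.110, edgeR adjusted p = 0.000303). The fall of Srebf1, -0.34 (SE 0.0920, edgeR adjusted p = 0.00391), was lost without BtdCPU and thapsigargin replicate 1 or thapsigargin replicate 3, and without the filter. The rise of Scap, 0.27 with overlapping libraries, was lost without BtdCPU and thapsigargin replicate 3 or thapsigargin replicate 1 or 2, and without the filter. Acaca (0.08) and Fasn (-0.15) again did not pass.

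Markers of cell types moved in these PERK -/- libraries too. The 8 fibroblast markers summed to 15099 to 19251 CPM with thapsigargin and to 11469 to 12613 CPM with BtdCPU added. Of these, Col1a1 averaged 4306 CPM with thapsigargin and 2601 CPM with BtdCPU added, while Vim averaged 2506 and 2949 CPM. The 7 adipocyte markers summed to 10.2 to 11.2 CPM with thapsigargin and to 21.8 to 26.7 CPM with BtdCPU added. Of these 7, Pparg averaged 5.71 and 20.3 CPM, while Fabp4 averaged 4.89 and 3.69 CPM, with overlapping libraries. The other 5 of the 7 were under 1 CPM in both groups. With halofuginone added, the sums were 9679 to 10449 CPM for fibroblast and 19.2 to 25.1 CPM for adipocyte markers. The part of these shifts in the results was not tested.

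Halofuginone added to thapsigargin in WT cells lowered most sterol enzymes and raised 1. Of 18, 11 fell and 1 rose, with a median of -0.45, and 5 of 7 fatty acid enzymes fell, with a median of -0.72. With the regulators, 18 of 31 were lower against 22.5% of all tested genes and 2 were higher against 22.8%. Same-numbered libraries of these 2 groups deviated together, and with the replicate block 13 sterol enzymes fell and 3 rose, all 7 fatty acid enzymes fell, and 22 of 31 genes were lower and 5 higher. Calls over all genes went from 7276 to 8597 with the block. The further rises under the block were those of Pmvk, Idi1 and Srebf2. Without halofuginone and thapsigargin replicate 1, or thapsigargin replicate 1 or 3, 3 fatty acid enzymes fell. Ebp read 36.1, 34.8 and 35.4 CPM with thapsigargin and 12.1, 13.6 and 11.3 CPM with both agents (log2 fold change -1.52, SE 0.134, edgeR adjusted p = 1.69e-10). Mvd read 42.4, 50.8 and 40.2 CPM with both (log2 fold change -1.49, SE 0.206, edgeR adjusted p = 6.08e-07). Hsd17b7 moved the other way, from 12.5, 13.6 and 14.7 CPM to 25.2, 25.6 and 31.3 CPM, a rise of 1.00 on the log2 scale, with no overlap. Scd2 fell by 1.12 (SE 0.159, edgeR adjusted p = 9.09e-07) and Srebf1 by 0.36 (SE 0.0921, edgeR adjusted p = 0.00164). Insig1 (0.07, SE 0.191, edgeR adjusted p = 0.778) and Srebf2 (0.23, SE 0.109, edgeR adjusted p = 0.0819, or 0.0333 with the replicate block) did not pass without the block, and Insig1 read 81.5, 82.6 and 59.1 CPM with both agents, well above the 26.8, 31.8 and 23.1 CPM of halofuginone alone. The rise of Insig2, 0.36 with overlapping libraries, was lost when libraries were scaled by size without TMM, without the filter, in a fit limited to the 2 groups, without halofuginone and thapsigargin replicate 1 or 2, and without thapsigargin replicate 1 or 3. The 4 epithelial markers summed to 0.416 to 4.24 CPM with thapsigargin and to 7.97 to 10.5 CPM with both agents. Of these markers Krt8 averaged 1.06 and 6.21 CPM and Krt18 0.326 and 2.31 CPM. Their part in the results was not tested.

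Halofuginone added to thapsigargin in PERK -/- cells lowered 17 of 18 sterol enzymes (median -0.97), all 7 fatty acid enzymes (median -1.13) and 4 of 5 regulators, 28 of 31 against 27.5% of all tested genes. None rose by edgeR, by DESeq2 or at an unadjusted edgeR p under 0.05. Dhcr7 read 9.19, 9.68 and 7.21 CPM with both agents (log2 fold change -2.38, SE 0.216, edgeR adjusted p = 8.61e-11). Nsdhl read 95.8, 108 and 100 CPM with thapsigargin and 23.4, 25.2 and 16.5 CPM with both (log2 fold change -2.22, SE 0.172, edgeR adjusted p = 3.34e-12). Acss2 read 5.0, 5.75 and 3.5 CPM with both (log2 fold change -1.76, SE 0.290, edgeR adjusted p = 5.63e-06). In all 3 genes the groups did not overlap. Srebf1 fell by 0.80 (SE 0.0926, edgeR adjusted p = 1.34e-08) and Srebf2 by 0.51 (SE 0.110, edgeR adjusted p = 0.000199), while Insig1 at -0.44 (SE 0.192, edgeR adjusted p = 0.0557) did not pass. The sterol enzyme that did not pass was Fdft1 (-0.13).

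The responses to the added compounds differed between genotypes. With BtdCPU, 13 of 31 differences were called below 0, against 10.1% of all tested genes, among them 10 of 18 sterol enzymes. With halofuginone, 16 of 31 were called below 0, against 16.9%, among them 11 of 18 sterol enzymes. None was called above 0 in either comparison by edgeR or DESeq2, and none had an unadjusted edgeR p under 0.05 in that direction. Dhcr7 and Hsd17b7 led both: the Dhcr7 difference was -1.29 with BtdCPU (SE 0.297, edgeR adjusted p = 0.00185) and -1.55 with halofuginone (SE 0.302, edgeR adjusted p = 0.00016). The Hsd17b7 difference was -1.23 with BtdCPU (SE 0.264, edgeR adjusted p = 0.000937) and -1.57 with halofuginone (SE 0.259, edgeR adjusted p = 1.68e-05). Hsd17b7 in PERK -/- cells read 21.2, 20.2 and 27.1 CPM with thapsigargin, 6.90, 8.11 and 5.97 CPM with BtdCPU added and 15.9, 15.8 and 14.5 CPM with halofuginone added.

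Both differences are measured from thapsigargin alone, where the genotypes already differed. The BtdCPU count was 6 without WT BtdCPU and thapsigargin replicate 2, PERK -/- BtdCPU and thapsigargin replicate 1, or PERK -/- thapsigargin replicate 3. It was 7 without WT BtdCPU and thapsigargin replicate 1 or PERK -/- BtdCPU and thapsigargin replicate 3, and 8 without WT thapsigargin replicate 1 or PERK -/- thapsigargin replicate 2. Its 10 sterol enzymes were 5 without WT BtdCPU and thapsigargin replicate 2 and 6 without PERK -/- BtdCPU and thapsigargin replicate 1 or 3 or PERK -/- thapsigargin replicate 3. The fatty acid median of the halofuginone difference, -0.39, was -0.25 without PERK -/- thapsigargin replicate 3.

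To set sterol against fatty acid genes, the mean log2 CPM of the 18 sterol enzymes and that of the 7 fatty acid enzymes were taken in each library, each relative to its mean in WT DMSO, and subtracted. Under BtdCPU the sterol enzymes were the lower of the 2 in all libraries: the sterol minus fatty acid value was -0.62, -0.27 and -0.57 in WT and -0.58, -0.55 and -0.44 in PERK -/-. In PERK -/- DMSO, however, this value was -0.18, 0.02 and -0.21 before any treatment. Halofuginone gave 0.02, -0.03 and 0.01 in WT and -0.55, -0.48 and -0.41 in PERK -/-, so both lists lay at about the same distance from WT DMSO in WT libraries, and sterol enzymes lay lower than fatty acid enzymes in PERK -/- libraries. Thapsigargin gave 0.12, 0.09 and -0.17 in WT and -0.07, 0.01 and -0.05 in PERK -/-, within or near the WT DMSO range of -0.12 to 0.12. Halofuginone with thapsigargin gave 0.21, 0.23 and 0.23 in WT, the 1 group in which all libraries had fatty acid enzymes lower than sterol enzymes. These values describe the list and carry no test.

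**Figure D4:**
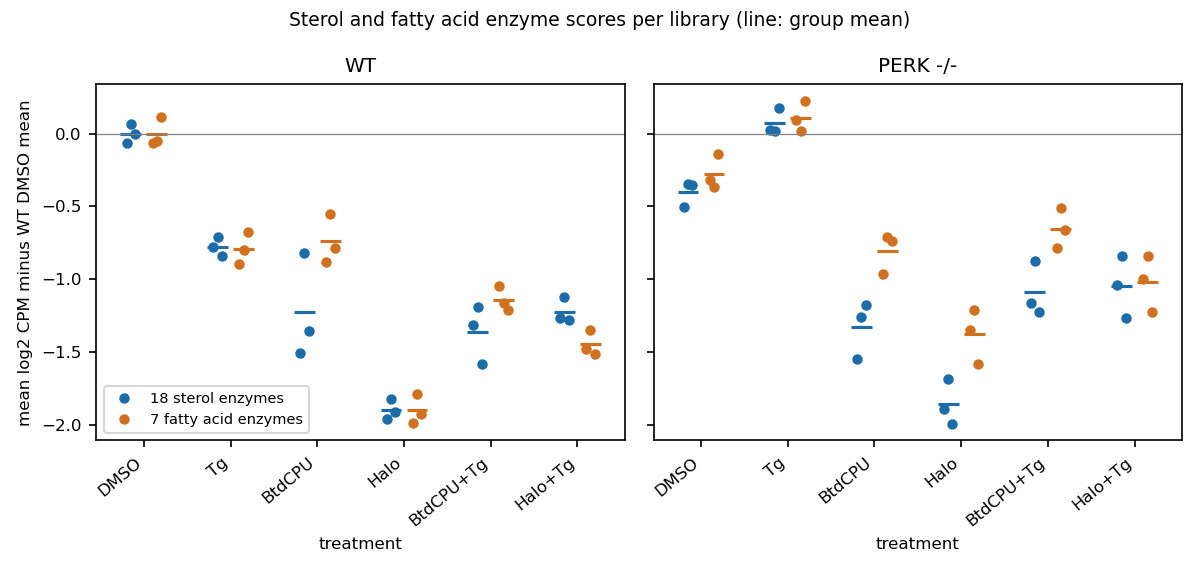
Mean log2 CPM of the 18 sterol enzymes and of the 7 fatty acid enzymes, each relative to WT DMSO, per library (points) with the group mean (line) in the 12 groups, where Tg stands for thapsigargin and Halo for halofuginone. Sterol values reach -1.96 in WT halofuginone and -2.0 in PERK -/- halofuginone, and with BtdCPU alone the sterol mean is below the fatty acid mean in both genotypes.

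The fatty acid enzymes differed among themselves under BtdCPU. Elovl6, Scd1, Scd2, Acss2 and Acly, the citrate lyase, fell in WT with BtdCPU alone, while Acaca and Fasn did not pass. In PERK -/- cells, where the values are a description without a test, 4 of these enzymes, all but Acss2, were those counted as lower. Acaca read 68.1, 56.3 and 85.3 CPM in WT DMSO and 68.3, 56.0 and 73.7 CPM in WT BtdCPU, with overlapping libraries. Acaca in PERK -/- cells read 54.0, 46.2 and 62.3 CPM in DMSO and 43.7, 49.7 and 49.8 CPM in BtdCPU. Acaca overlaps Tada2a in the annotation.

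Within the sterol list the 7 enzymes up to farnesyl diphosphate and the 11 from squalene onward were also summarised apart. In WT halofuginone the early enzymes had a median of -2.32 and the late ones of -1.48. For PERK -/- against WT in DMSO the medians were -0.35 and -0.50, and Nsdhl, Sc5d, Tm7sf2, Hsd17b7 and Lss accounted for the largest falls. Sterol mean scores in PERK -/- DMSO were -0.50, -0.35 and -0.35, those of the late enzymes -0.63, -0.53 and -0.51, and those of the early enzymes -0.29, -0.07 and -0.11.

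Of 36 further genes of these pathways taken by a fixed list, 35 were tested. In WT thapsigargin 10 rose and 8 fell, 28.6% and 22.9% of the 35, against 24.9% and 22.7% of all tested genes. In WT BtdCPU 5 rose and 5 fell, 14.3% each, against 12.9% and 9.31%, and in WT halofuginone 13 rose and 16 fell, 37.1% and 45.7%, against 34.7% and 33.4%. With thapsigargin in PERK -/- cells 13 rose and 4 fell, 37.1% and 11.4%, against 15.2% and 12.7%, and in PERK -/- halofuginone 7 rose and 10 fell, 20% and 28.6%, against 21.2% and 21%. The shares near those of all genes, such as both in WT thapsigargin, are no result about this list.

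Single genes of this list moved in both directions. Pdss1, which starts the side chain of ubiquinone from the same isoprenoids, rose in WT with thapsigargin (0.58) and with halofuginone (1.57), and in PERK -/- it fell with thapsigargin (-1.01) and rose with halofuginone (0.63). Paqr3, a Golgi anchor of SCAP, rose in WT with thapsigargin (2.37) and BtdCPU (1.9), while in PERK -/- thapsigargin its change of -0.27 did not pass. In DMSO Paqr3 was already higher in PERK -/- than in WT (0.89). Its log2 fold change with halofuginone was 0.80 in WT and 0.99 in PERK -/-. For BtdCPU added to thapsigargin in PERK -/- it was 2.01. Syvn1, a ubiquitin ligase of the endoplasmic reticulum, rose with thapsigargin in WT (2.87) and in PERK -/- (1.75). Lpin1, a phosphatidate phosphatase, fell with halofuginone by 2.06 on the log2 scale in WT and by 2.23 in PERK -/-. Fads2, a fatty acid desaturase, fell with thapsigargin in WT (-0.69) and rose in PERK -/- (0.66), and the difference of 1.35 passed the test (edgeR adjusted p = 2.57e-07).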

How the data were processed

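RNA of 36 MEF libraries was measured by strand-specific sequencing after ribosomal depletion and mRNA selection, per the labels' protocols. The authors deposited 1 table of estimated counts per gene and library for 36930 entries, per the file headers. Build GRCm39 and the tool DESeq are named in the submitters' processing notes with no role, and the aligner, counter and annotation are not given in the sources used here. In the deposited counts 50.6% of values were 0.025, which was read as 0, and 2.69% of the others were not whole. Values were rounded, 39 repeated symbols were summed, and 27 entries whose symbol had been turned into a date (0.206% to 0.278% of counts) were left out as genes without a usable name.

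Genes were filtered with filterByExpr and scaled by TMM. All 12 groups were fitted together with edgeR 4.0.16 (robust quasi-likelihood, R 4.3.3), and p-values were adjusted over the tested genes. CPM used the scaled library sizes, with a prior count of 2 for log2 scores. Interaction contrasts gave differences between genotypes as the PERK -/- response minus the WT response. The fitting code was tested on simulated data.

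Members and lists were chosen with earlier results of these data known. Full statistics are given in each comparison of 2 groups for the 2 sterol enzymes and 1 fatty acid enzyme with the largest called change, and for Insig1, Srebf1 and Srebf2, and in each interaction for the 2 largest called differences per direction. Other members are named where a count turns on them, and the 5 further pathway genes named were picked after their values were seen. Alternatives were library size as the only scaling, no filter, a replicate block, only the compared groups, DESeq2 1.42.0, and leaving out each library. Labels share replicate numbers across groups with no stated pairing. Deviations of same-numbered libraries correlated above 0.1 in every pair for WT BtdCPU with thapsigargin against thapsigargin (0.159, 0.312 and 0.337) and for WT halofuginone with thapsigargin against thapsigargin (0.162, 0.201 and 0.308), and in no other comparison. No 2 libraries agreed within sampling noise (lowest chi-square per degree of freedom 9.66). Promoter windows came from RefSeq (GRCm38.p6), and no coordinates were converted between builds.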

Additional observations from a re-analysis of the deposited data

Results flagged for a closer look

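Differences between genotypes in the response to the same treatment were tested by interaction terms in edgeR, and the largest called ones are listed here. For thapsigargin against DMSO, the PERK -/- response exceeded the WT response by 2.51 for Dhcr7 and by 2.28 for Acat2. For halofuginone against DMSO it exceeded the WT response by 1.26 for Acss2 and by 1.21 for Mvd, and the Acss2 call was lost without WT halofuginone replicate 1, WT DMSO replicate 2 or PERK -/- DMSO replicate 1. For BtdCPU added to thapsigargin the difference was -1.29 for Dhcr7 and -1.23 for Hsd17b7. For halofuginone added to thapsigargin it was -1.57 for Hsd17b7 and -1.55 for Dhcr7. The last 4 values are measured from the thapsigargin libraries in which the genotypes already differed. The 2 halofuginone values before them are measured from DMSO libraries, in which Acss2 was already lower in PERK -/- (-0.77).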

How the results depend on the processing

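No gene of the set that was called changed sign under any alternative run. Of the called genes, those called under every alternative were 17 of 21 in WT thapsigargin, 21 of 27 in WT BtdCPU, 29 of 31 in WT halofuginone, 10 of 16 in PERK -/- thapsigargin, 27 of 29 in PERK -/- halofuginone and 22 of 24 for the genotype difference with thapsigargin. They were 2 of 12 for BtdCPU added to thapsigargin in WT and 26 of 28 in PERK -/-, 14 of 20 and 23 of 28 for halofuginone added, and 9 of 17 for the genotypes in DMSO. The replicate block was set within genotype, so under it the genotypes in DMSO were compared at a reference replicate and not as group means. Other genotype differences gave 9 of 13 with halofuginone, 5 of 13 with BtdCPU added to thapsigargin and 10 of 16 with halofuginone added. With library size as the only scaling, WT halofuginone medians were -1.68 (sterol) and -2.17 (fatty acid), the sterol median of the genotype difference with halofuginone was 0.57, and 11 genes were called between genotypes in DMSO. That scaling shifted the median of all genes by -0.11 in WT halofuginone and by 0.10 in the genotype difference with halofuginone. It moved the share of all calls that were higher from 58.1% to 45.1% in WT BtdCPU, from 55.9% to 80.7% for BtdCPU added to thapsigargin in WT (45.9% with DESeq2), and from 51.6% to 41.4% for its genotype difference. With no filter 19 genes were called for BtdCPU added to thapsigargin in WT, where calls over all genes went from 372 to 813. With only the compared groups 3 were called there, beside 23 over all genes. Under both settings Mvd was called above 0 in the genotype difference with halofuginone added to thapsigargin.

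With the replicate block 20 genes were called for BtdCPU added to thapsigargin in WT rather than 12, and for halofuginone added 5 rose rather than 2 and 22 fell rather than 18. Over all genes the block gave 2079 calls rather than 372 with BtdCPU added and 8597 rather than 7276 with halofuginone added. In the other comparisons, where libraries share only a number, the block added 1 rise (Srebf1) to the 0 of WT thapsigargin, 1 rise (Srebf1) to the 1 of WT BtdCPU, 1 fall (Fasn) to the 0 of PERK -/- thapsigargin, 2 differences below 0 (Srebf2 and Insig2) to the 0 of the genotype difference with halofuginone, and 2 fatty acid enzymes to the 2 below 0 in that with halofuginone added to thapsigargin.

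Leaving out 1 library at a time gave 2 to 13 called genes for BtdCPU added to thapsigargin in WT, 10 to 14 in PERK -/- thapsigargin, 10 to 16 between genotypes in DMSO and 6 to 12 for the genotype difference with BtdCPU added to thapsigargin. Sterol medians ran from -0.77 to -0.57 in WT thapsigargin, -1.67 to -1.45 in WT halofuginone, 0.30 to 0.43 in PERK -/- thapsigargin, 0.14 to 0.49 for the genotype difference with BtdCPU and 0.35 to 0.54 for that with halofuginone. Fatty acid medians ran from -0.79 to -0.45 in WT thapsigargin, -2.07 to -1.93 in WT halofuginone, -0.45 to -0.28 for BtdCPU and -0.79 to -0.54 for halofuginone added to thapsigargin in WT, and -0.44 to -0.075 between genotypes in DMSO. For genotype differences they ran from -0.13 to 0.27 with BtdCPU, 0.66 to 0.96 with halofuginone and -0.56 to -0.25 with halofuginone added to thapsigargin. Causes of these shifts were not tested.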
